A study of Homo sapiens with 4 samples.

Results

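A set of 10 genes that carry glucose into cells, commit it to glycolysis and move its monocarboxylate products across membranes was examined in RNA-seq of IMR-90 cells with and without RB1, out of 57820 gene IDs in the deposited count table. The genes were SLC2A1, SLC2A3, HK2, PFKFB3, PFKFB4, LDHA, PDK1, SLC16A1, SLC16A3 and SLC16A6, all protein-coding and taken by the Ensembl ID of each symbol, with gene coordinates given in GRCh37. SLC2A1 and SLC16A6 were selected on their rise in RB1 KO in this same comparison, so their values are given as a description without a test, and the comparison was tested for the other 8 genes. IMR-90 is a human fetal lung fibroblast line. The wild-type group (2 libraries) carries its own RB1, and in the RB1 KO group (2 libraries) CRISPR-Cas9 was aimed at the translational start of RB1, the retinoblastoma protein that restrains E2F-driven entry into the cell cycle. RB1 KO cells were a puromycin-selected pool made with 1 guide, and the methods describe no transduced and selected wild-type control, so vector and selection cannot be told apart from the loss of RB1. All cells were grown to confluence in high-glucose medium with sodium pyruvate and serum, and received no other treatment before RNA was taken. The sources do not say whether replicates came from separate cultures, and the p-values may therefore reflect technical spread alone.

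Glucose enters most cells down its gradient through SLC2A (GLUT) carriers and is trapped by hexokinases as glucose 6-phosphate. The bifunctional PFKFB enzymes make and remove fructose 2,6-bisphosphate, the strongest activator of phosphofructokinase. Lactate dehydrogenase returns pyruvate to lactate and so regenerates NAD+, pyruvate dehydrogenase kinases hold pyruvate out of the mitochondrial citric acid cycle, and SLC16A (MCT) carriers move lactate, pyruvate and related acids together with protons. Most of these genes are known targets of hypoxia-inducible factors (HIF) and several are targets of MYC, and cultured fibroblasts are known to release much of their glucose carbon as lactate.

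The libraries held 30873239 to 34247292 counts in genes, and 16426 genes passed a filter on low counts, all 10 genes among them. Over all of these, the quasi-likelihood test of edgeR, adjusted by Benjamini-Hochberg, called 327 genes higher in RB1 KO (1.99%) and 149 lower (0.907%) at an adjusted p under 0.1, with a median log2 fold change of -0.01. Without RB1 KO replicate 2 it called 770 higher and 661 lower, and without wild-type replicate 1 it called 186 and 69. RB1 itself was counted at 2802 and 2629 in RB1 KO and 2545 and 2392 in wild-type (log2 fold change 0.12, SE 0.0723, edgeR adjusted p = 0.507), and this transcript level does not check the label, because the guide disrupts translation and may leave the RNA in place. The paper checked the disruption of RB1 at the protein level by Western blot. All 10 fibroblast markers were detected, with a summed level of 42071 to 47117 CPM (counts scaled to the library total, with TMM factors) in RB1 KO and 34376 to 36281 in wild-type, while the 8 epithelial markers summed to at most 1.71 CPM and 4 of them were at 0 throughout. The 3 endothelial markers with an ID summed to 3.64 to 5.14 CPM in RB1 KO and 1.53 to 1.82 in wild-type with CDH5 at 0 in each library, and the 4 blood markers to at most 0.188 CPM. The 8 proliferation markers summed to 644 to 722 CPM in RB1 KO and 801 to 914 in wild-type, and 1 of them, MKI67, was called lower (log2 fold change -0.49). Also called by edgeR were the fibroblast marker LUM (0.68, adjusted p = 0.0245) and the endothelial marker KDR (1.84, adjusted p = 0.0393), both higher. By FACS, the paper found the cell cycle phases of confluent wild-type and RB1 KO cells comparable, a measure not made on these libraries. The part of proliferation, fibroblast and endothelial marker levels in the results for the glucose genes was not tested, and in these bulk libraries fewer cells of a kind and less RNA per cell cannot be told apart.

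The 10 genes spanned a wide range of levels, compared here per kilobase (kb) of merged exon. In wild-type libraries LDHA stood first at 125 CPM per kb, followed by SLC2A1 at 18.2, PFKFB3 at 13.9, SLC16A3 at 13.4, SLC16A1 at 11.4, SLC2A3 at 8.09, HK2 at 5.94, PDK1 at 1.71, PFKFB4 at 1.24 and SLC16A6 at 0.307. Among neighbours in that order only PFKFB3 and SLC16A3 overlapped between the libraries. In RB1 KO the order of these levels was LDHA at 128, SLC2A1 at 35.1, SLC16A3 at 17.2, PFKFB3 at 16.3, SLC16A1 at 11.4, SLC2A3 at 10.5, HK2 at 8.77, PDK1 at 2.13, PFKFB4 at 1.32 and SLC16A6 at 0.967, and 4 neighbouring pairs overlapped, SLC16A3 with PFKFB3, SLC16A1 with SLC2A3, SLC2A3 with HK2 and PFKFB4 with SLC16A6. The middle of the order depends on the length used. With the length of the canonical transcript SLC16A3 came before SLC2A1 in wild-type libraries, while LDHA stayed first and SLC16A6 last.

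**Figure D1:**
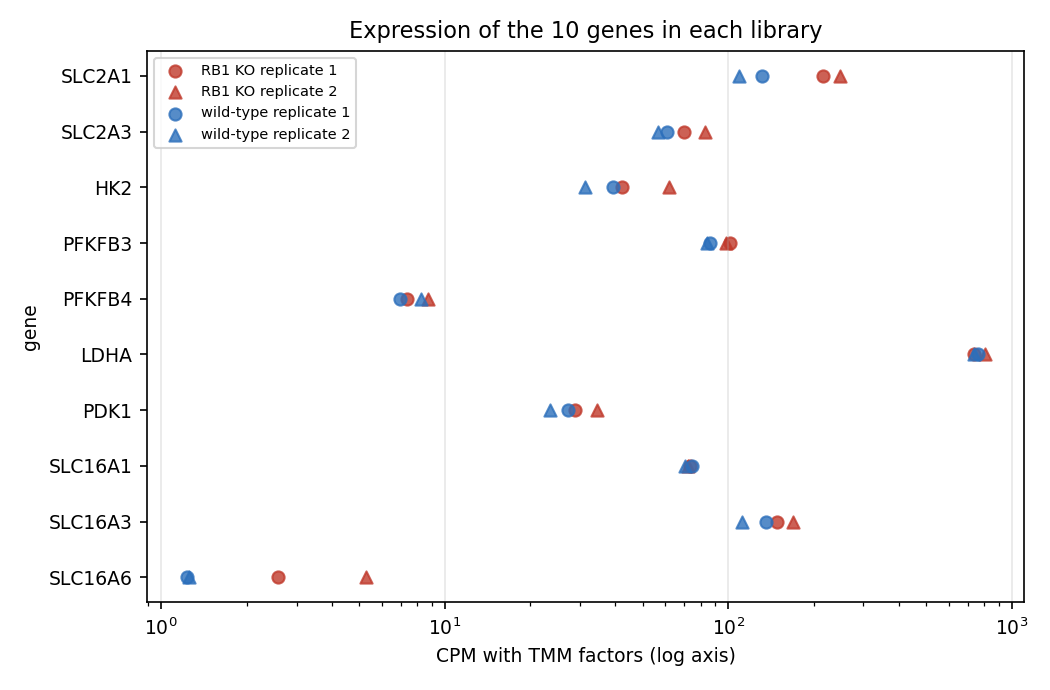
CPM (with TMM factors, log axis) of the 10 genes in each library, red for RB1 KO and blue for wild-type, circles for replicate 1 and triangles for replicate 2. Both red points lie to the right of both blue points for SLC2A1, SLC2A3, HK2, PFKFB3, PDK1, SLC16A3 and SLC16A6, and the colours overlap for PFKFB4, LDHA and SLC16A1. SLC2A1 and SLC16A6 were picked for their rise in RB1 KO. The arrangement with both RB1 KO libraries above is found in 22.5% of all genes tested.

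Promoter sequence is given because many of these genes are described as common targets of HIF. RefSeq windows (GRCh38.p14) were found for 7 of the 10 genes, 15 windows in all, and the 250 bases before each start were searched on both strands for the hypoxia response core (ACGTG or GCGTG), the E-box CACGTG bound by MYC and HIF-family proteins, and an E2F site (TTTCCCGC, TTTCGCGC, TTTGCCGC or TTTGGCGC). ACGTG lies within the E-box, which therefore counts as a hypoxia core on each strand. The hypoxia core occurs in 43.2% of all 35116 windows of that length, the E-box in 6.34% and the E2F site in 2.79%. The windows of SLC2A1, HK2 and LDHA are shown because these genes had, in that order, a large, a moderate and hardly any difference in level between genotypes, and for HK2 and LDHA, which have 2 windows each, the window with more matches was taken. Capitals mark hypoxia core and E-box matches, and positions are read 5′ to 3′ on the strand of the gene.
SLC2A1, chr1:42958869-42959118, minus strand: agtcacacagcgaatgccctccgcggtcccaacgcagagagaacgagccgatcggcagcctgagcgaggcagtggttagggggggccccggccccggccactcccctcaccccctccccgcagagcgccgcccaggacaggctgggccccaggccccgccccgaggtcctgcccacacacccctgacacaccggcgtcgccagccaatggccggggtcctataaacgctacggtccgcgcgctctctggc
HK2 (second start), chr2:74834920-74835169, plus strand: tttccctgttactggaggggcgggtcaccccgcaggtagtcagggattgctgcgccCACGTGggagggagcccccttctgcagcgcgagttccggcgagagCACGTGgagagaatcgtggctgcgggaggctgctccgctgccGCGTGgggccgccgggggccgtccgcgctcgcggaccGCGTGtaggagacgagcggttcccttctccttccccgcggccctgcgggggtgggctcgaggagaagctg
LDHA (first start), chr11:18394313-18394562, plus strand: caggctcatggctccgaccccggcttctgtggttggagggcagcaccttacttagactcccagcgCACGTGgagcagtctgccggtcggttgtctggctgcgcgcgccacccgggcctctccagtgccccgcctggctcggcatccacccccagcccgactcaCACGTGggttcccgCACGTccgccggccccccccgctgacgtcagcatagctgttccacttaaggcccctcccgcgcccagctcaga
The SLC2A1 window, with a G+C content of 72.4%, held none of these words. The HK2 window (71.6%) held 6 core matches, 4 of them in 2 E-boxes, and the LDHA window (69.6%) held 5, of which 4 lay in 2 E-boxes. The window of HK2 that is not shown held 3 core matches and that of LDHA 1, neither with an E-box. Windows of PFKFB3 held 1 and 2 core matches, that of PFKFB4 held 1, those of PDK1 held 0 and 2, and the 5 windows of SLC16A3 held between 0 and 3. No E2F word lay in any of the 15 windows. These matches are descriptions of letters near the starts, and a window without a match says nothing of sites elsewhere.

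Of the 2 class I glucose carriers, the broadly expressed SLC2A1 (GLUT1; chromosome 1, 43391024 to 43424564, minus strand) was counted at 7069 and 8286 in RB1 KO and at 4379 and 3478 in wild-type. Its level was 232 ± 23.9 CPM (SD, n = 2) in RB1 KO and 120 ± 15.7 CPM (SD, n = 2) in wild-type, a 1.93-fold difference (0.95 on the log2 scale). Both RB1 KO libraries had more counts than both wild-type libraries, the pattern the gene was picked for. SLC2A3 (GLUT3; chromosome 12, 8071826 to 8171603, minus strand), a carrier of high affinity best known from neurons, was counted at 2289 and 2751 in RB1 KO and 2018 and 1803 in wild-type. Both RB1 KO libraries were again above both wild-type libraries, but by less: 76.2 ± 9.17 against 58.6 ± 2.80 CPM, a log2 fold change of 0.38 (SE 0.0954, 95% interval 0.16 to 0.60, edgeR adjusted p = 0.119). SLC2A14, the near copy of SLC2A3 that could share its reads, held 5 to 11 counts, from reads with 1 mapping place only.

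The balance of the carriers was also compared within each library, where no normalization enters. SLC2A1 had 3.09 and 3.01 times the counts of SLC2A3 in RB1 KO and 2.17 and 1.93 times in wild-type, a mean difference of 0.58 in log2 ratio. All 4 libraries thus had more reads of SLC2A1 than of SLC2A3, and the excess was larger in both RB1 KO libraries. SLC2A1 was picked for its rise in RB1 KO, so its larger ratio there partly restates that choice. The ratios are given as values, and no test was run on them.

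HK2 (chromosome 2, 75061254 to 75120486, plus strand), the inducible hexokinase that binds mitochondria, gave 1383 and 2052 counts in RB1 KO and 1302 and 992 in wild-type. It averaged 51.9 ± 13.8 CPM against 35.1 ± 5.61 CPM (log2 fold change 0.56, SE 0.178, 95% interval 0.15 to 0.97, edgeR adjusted p = 0.190). The groups did not overlap, yet RB1 KO replicate 1 at 42.1 CPM lay close to wild-type replicate 1 at 39.1 CPM, and without RB1 KO replicate 2 the log2 fold change was 0.26. HK1, the constitutive hexokinase, was at 131 ± 7.24 against 133 ± 1.79 CPM (log2 fold change -0.02). The count ratio of HK2 to HK1 was 0.334 and 0.452 in RB1 KO and 0.292 and 0.237 in wild-type, so that HK1 remained the more counted of the pair in each library.

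Of the PFKFB enzymes, PFKFB3 (chromosome 10, 6186897 to 6296607, plus strand), the isoform in which kinase activity far outweighs phosphatase activity, had replicates close to each other. Its counts were 3324 and 3280 in RB1 KO and 2868 and 2675 in wild-type, or 99.9 ± 1.87 against 85.1 ± 1.48 CPM (log2 fold change 0.23, SE 0.0662, 95% interval 0.08 to 0.38, edgeR adjusted p = 0.155). PFKFB4 (chromosome 3, 48555117 to 48599448, minus strand), its relative first described in testis, was counted at 242 and 290 in RB1 KO and 231 and 263 in wild-type, with overlapping groups (log2 fold change 0.08, 95% interval -0.27 to 0.44, edgeR adjusted p = 0.852). That interval leaves room for changes in both directions at this depth. PFKFB3 outnumbered PFKFB4 by 13.7 and 11.3 times in RB1 KO and by 12.4 and 10.2 times in wild-type, ratios that overlapped, as did those of PFKFB3 to PFKFB2. PFKFB2, the heart and kidney isoform, gave 201 to 250 counts (log2 fold change 0.13).

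LDHA (chromosome 11, 18416107 to 18429972, plus strand), the subunit that favours lactate formation, was the gene with the most counts of the 10 and hardly differed: 24157 and 26708 in RB1 KO against 25417 and 23470 in wild-type. The levels of 769 ± 47.4 and 751 ± 18.4 CPM overlapped, with a log2 fold change of 0.03 (95% interval -0.16 to 0.23, edgeR adjusted p = 0.891). LDHB, the subunit of heart that favours pyruvate, was at 250 ± 16.1 against 273 ± 9.08 CPM (log2 fold change -0.12, edgeR adjusted p = 0.498). The ratio of LDHA to LDHB counts was 2.81 and 3.36 in RB1 KO and 2.73 and 2.77 in wild-type, and RB1 KO replicate 2 alone made most of the mean difference of 0.16 in log2 ratio.

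PDK1 (chromosome 2, 173420101 to 173473397, plus strand), 1 of 4 kinases that switch off pyruvate dehydrogenase, was counted at 944 and 1150 in RB1 KO and 903 and 748 in wild-type. Its level was 31.6 ± 4.11 against 25.3 ± 2.56 CPM (log2 fold change 0.32, SE 0.117, 95% interval 0.05 to 0.59, edgeR adjusted p = 0.248), with the RB1 KO libraries above. The other kinases did not share one pattern. PDK2 had overlapping groups (639 to 747 counts in RB1 KO, 652 and 721 in wild-type, log2 fold change -0.01), PDK3 was scarce at 26 to 50 counts, and PDK4, the starvation-responsive kinase, gave 755 and 656 counts in RB1 KO and 248 and 536 in wild-type (log2 fold change 0.82, edgeR adjusted p = 0.257), a gene that was called when RB1 KO replicate 1, RB1 KO replicate 2 or wild-type replicate 2 was left out. The wild-type libraries thus disagreed about PDK4 by more than they disagreed about PDK1, and the PDK1 to PDK4 ratio ran from 1.25 to 1.75 in RB1 KO and from 1.40 to 3.64 in wild-type.

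The lactate carriers SLC16A1 and SLC16A3 are given in turn, and whether they differ in their change was not tested. SLC16A1 (MCT1; chromosome 1, 113454469 to 113500215, minus strand), which moves lactate in either direction with high affinity, was counted at 2401 and 2392 in RB1 KO and 2473 and 2239 in wild-type. At 72.5 ± 0.870 against 72.3 ± 2.78 CPM its log2 fold change was 0.0028 (95% interval -0.16 to 0.17, edgeR adjusted p = 0.989), the smallest of the 10 genes. SLC16A3 (MCT4; chromosome 17, 80175810 to 80219005, plus strand), the exporter of strongly glycolytic cells, was counted at 4886 and 5643 in RB1 KO and 4516 and 3555 in wild-type, that is 159 ± 14.7 against 124 ± 16.9 CPM (log2 fold change 0.36, SE 0.107, 95% interval 0.12 to 0.61, edgeR adjusted p = 0.164). SLC16A1 had 0.491 and 0.424 times the counts of SLC16A3 in RB1 KO and 0.548 and 0.630 times in wild-type, so SLC16A3 took the larger share in each library and more of it in both RB1 KO libraries.

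SLC16A6 (MCT7; chromosome 17, 66263167 to 66287408, minus strand), a carrier that exports ketone bodies from liver in zebrafish, was the scarcest of the genes and showed the largest fold. It was counted at 85 and 175 in RB1 KO and at 41 and 40 in wild-type, or 3.92 ± 1.89 against 1.24 ± 0.0179 CPM, a 3.15-fold difference (1.65 on the log2 scale). The wild-type libraries were nearly equal, whereas the RB1 KO libraries were far apart (2.59 and 5.26 CPM). Leaving out RB1 KO replicate 2 lowered the log2 fold change to 1.06 and leaving out replicate 1 raised it to 2.08. Per read of SLC16A1, reads of SLC16A6 numbered 0.0354 and 0.0732 in RB1 KO and 0.0166 and 0.0179 in wild-type. As SLC16A6 was picked for its rise, this difference partly restates that choice.

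**Figure D2:**
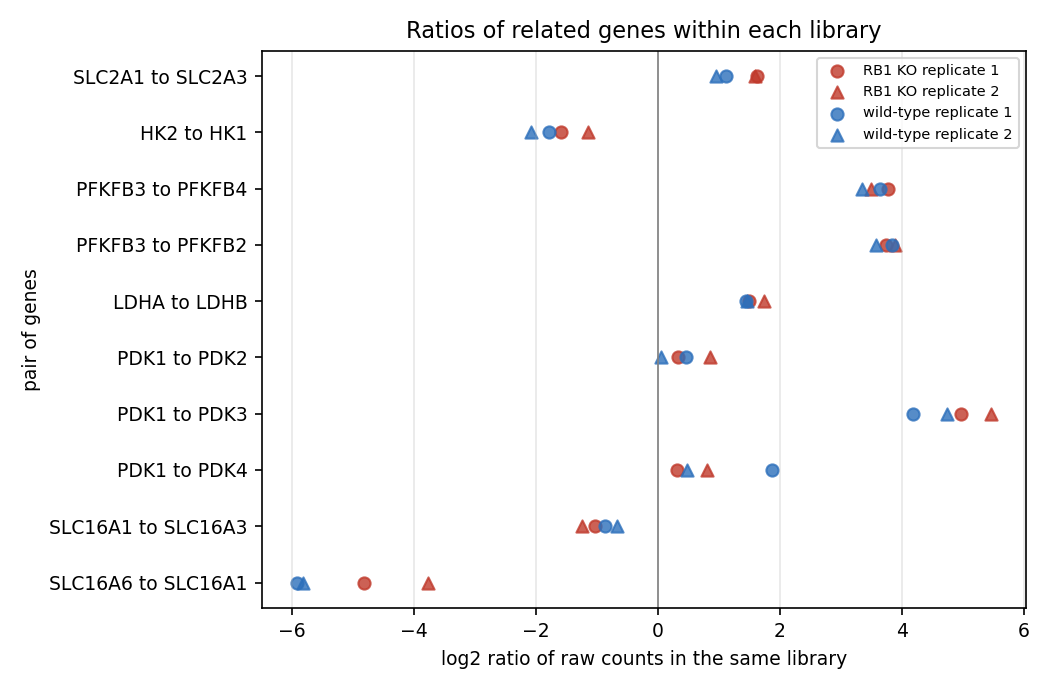
Log2 ratio of raw counts of 10 pairs of related genes within each library, red for RB1 KO, blue for wild-type, with a line at equal counts. The ratios of SLC2A1 to SLC2A3, HK2 to HK1, LDHA to LDHB, PDK1 to PDK3 and SLC16A6 to SLC16A1 lie higher in both RB1 KO libraries, that of SLC16A1 to SLC16A3 lies lower, and the other 4 overlap. SLC2A1 and SLC16A6 were picked for their rise in RB1 KO, which their ratios carry.

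Of the 8 genes tested, edgeR called 0, beside 1.99% of all genes called higher and 0.907% lower, with 0 lower and 5 higher at an unadjusted p under 0.05 (8.16% of all genes were higher at that level), SLC2A3, HK2, PFKFB3, PDK1 and SLC16A3. These were also the 5 of 8 in which both RB1 KO libraries lay above both wild-type libraries, an arrangement found in 22.5% of all genes tested. All 8 log2 fold changes were above 0, with a median of 0.28, beside -0.01 for all genes, although LDHA and SLC16A1 were below 0 when scaled by library totals. Scaling by the ERCC spike-ins moved the median of all genes to -0.49; 7 of the 8 were then below 0, HK2 excepted, and all 8 stayed above that median. SLC2A1 and SLC16A6 were at 0.49 and 1.18 on that scaling. DESeq2, the tool of the study, called 3 of the 8 at an adjusted p under 0.1, SLC2A3 (0.39, adjusted p = 0.0526), HK2 (0.57, adjusted p = 0.0352) and SLC16A3 (0.37, adjusted p = 0.0676), where it called 3.01% of all genes higher.

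The calls depended on single libraries. A fit without 1 library leaves 1 library in that genotype and takes its spread from the other genotype alone. Without RB1 KO replicate 1, edgeR called SLC2A3 (0.50), HK2 (0.81), PDK1 (0.45) and SLC16A3 (0.46), where it called 3.37% of all genes higher. Without wild-type replicate 1 it called SLC16A3 (0.52), where it called 1.08% of all genes higher, while without either of the others it called none of the 8. RB1 KO replicate 2 was the highest of the 4 libraries for 6 of the 8 genes and wild-type replicate 2 the lowest for 6. Over all genes tested these libraries were the highest in 21.2% and the lowest in 21.6%. The exceptions to RB1 KO replicate 2 being highest were PFKFB3 and SLC16A1.

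**Figure D3:**
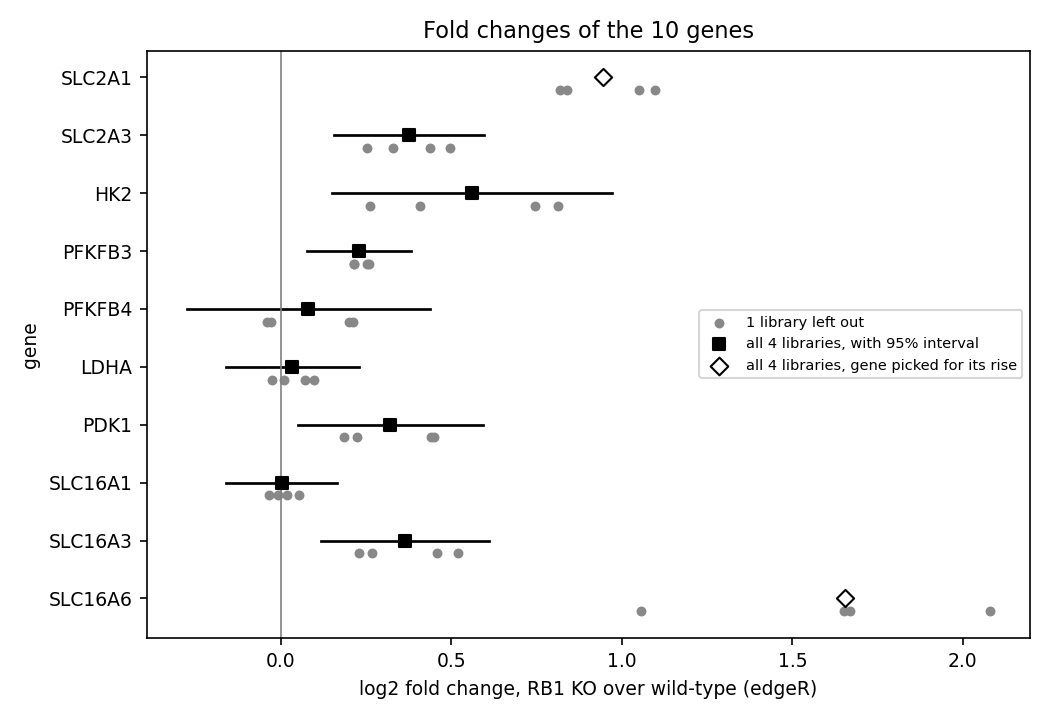
Log2 fold change of RB1 KO over wild-type for the 10 genes from edgeR, with squares and 95% intervals for the 8 genes tested, open diamonds for the pair picked for its rise and grey points for the value with 1 library left out. SLC2A1 (0.95) and SLC16A6 (1.65) lie farthest right, and the intervals of PFKFB4, LDHA and SLC16A1 cross 0.

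The rest of the route was described with 13 lists holding 119 further genes, of which 95 passed the filter on low counts. edgeR called 5 of the 95 higher in RB1 KO (1.99% of all genes) and 1 lower (0.907%), and 89 were not called. The median log2 fold change over the 95 was 0.07. The number called changed when 1 library was left out, in these lists and over all genes. On the ERCC scaling 0 were called higher, beside 11 of all genes.

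The main edgeR test made no call on the chain of enzymes between hexokinase and pyruvate. Of the 15 tested enzymes below hexokinase, edgeR called 0, 0 had an unadjusted p under 0.05 and DESeq2 called 0, although ENO2, an enolase of neurons, was called without RB1 KO replicate 1. Their log2 fold changes ran from -0.14 to 0.29 with a median of 0.03. GAPDH, glyceraldehyde-3-phosphate dehydrogenase, was counted at 80808 and 85654 in RB1 KO and 89824 and 79734 in wild-type (log2 fold change -0.05, 95% interval -0.28 to 0.18). PKM, pyruvate kinase, was counted at 57312 and 64122 against 60679 and 56420 (0.03, 95% interval -0.19 to 0.25). For both enzymes, as for LDHA, the groups overlapped.

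Among the further transporters of the lists, SLC2A13 rose 1.01 on the log2 scale (1265 and 1126 counts against 497 and 671, edgeR adjusted p = 0.0305), the only call among 8 tested SLC2A relatives, and it is a carrier of myo-inositol and protons. SLC2A10, a carrier known from arterial tortuosity, had 3281 and 3128 counts against 2602 and 2613 (0.27, edgeR adjusted p = 0.125) and was called without RB1 KO replicate 2. SLC16A14, a member of the monocarboxylate family with no settled cargo, rose 1.27 on the log2 scale (353 and 317 counts against 128 and 146, edgeR adjusted p = 0.0153). EMB, embigin, a chaperone that escorts MCT carriers to the surface, fell by 0.92 (60 and 62 counts against 120 and 108, edgeR adjusted p = 0.0761), a call lost without wild-type replicate 1 (adjusted p = 0.263) or replicate 2 (adjusted p = 0.101) and not made by DESeq2 (adjusted p = 0.148). BSG, basigin, the other chaperone of the list, was at 323 ± 20.1 against 302 ± 12.2 CPM with overlapping groups (log2 fold change 0.10, edgeR adjusted p = 0.618). EMB was far scarcer, at 1.84 against 3.50 CPM. The median over the 10 tested genes of the monocarboxylate family and its chaperones was 0.12.

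The branches off glycolysis held no calls in the main edgeR test, which used all 4 libraries, TMM factors and genotype alone. TKT was called lower with library totals, PC higher without wild-type replicate 2, and PDK4 in the fits given above. The crossed replicate block, described in the last section, called further genes of these lists in both directions. In the pentose phosphate pathway, where 7 genes were tested with a median of -0.01, TKT (transketolase) was at 283 ± 10.2 against 340 ± 1.31 CPM (log2 fold change -0.26, edgeR adjusted p = 0.134) and PGD (6-phosphogluconate dehydrogenase) gave 9842 and 9312 counts against 10740 and 10260 (-0.16). In glycogen metabolism (8 genes, median 0.03) PYGB, brain-type glycogen phosphorylase, and UGP2, which makes UDP-glucose, had log2 fold changes of 0.03 and -0.01. In gluconeogenesis (3 genes, median 0.20) PC, pyruvate carboxylase, stood at 0.20 with wild-type libraries of 1186 and 1806 counts on either side of the RB1 KO libraries, and the phosphatase subunit G6PC3 at 0.01. At the pyruvate dehydrogenase gate (13 genes, median 0.05) the subunit DLD and the phosphatase regulator PDPR stood at 0.05 and 0.07. TIGAR, which breaks down fructose 2,6-bisphosphate, had 882 and 875 counts against 760 and 704 (0.24, edgeR adjusted p = 0.235), and the ADP-dependent glucokinase ADPGK 0.03.

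Control of uptake and oxygen sensing held 2 calls, 1 in each list. ARRDC4, an arrestin-domain protein that lowers glucose uptake and is induced by glucose through MLXIP and MLX, rose 0.60 on the log2 scale (1201 and 1089 counts against 767 and 716, edgeR adjusted p = 0.0288). MLXIP and MLX themselves had log2 fold changes of 0.15 and -0.08. MYC, in the same list, had 846 and 1304 counts against 1431 and 1041, with overlapping groups (log2 fold change -0.22, edgeR adjusted p = 0.650). With RB1 KO replicate 2 left out, edgeR called MYC lower. EPAS1, the HIF-2 alpha subunit, rose 0.61 (47013 and 49101 counts against 32781 and 29407, edgeR adjusted p = 0.0240), beside 0.11 for HIF1A with overlapping groups (26904 and 24046 against 21559 and 24928). Whether EPAS1 and HIF1A differ in their change was not tested.

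Among 14 genes known to respond to HIF outside glycolysis, the main edgeR test called 1, P4HA1, a subunit of collagen prolyl 4-hydroxylase. It had 7784 and 7860 counts in RB1 KO against 6045 and 5734 in wild-type (log2 fold change 0.39, edgeR adjusted p = 0.0381). The call was lost without wild-type replicate 1, where the log2 fold change was 0.40. DESeq2 also called DDIT4, an inhibitor of mTOR signalling, which edgeR called without RB1 KO replicate 2 or without wild-type replicate 2, and edgeR called BNIP3L, a mitophagy receptor, without RB1 KO replicate 2. Of the 14, 13 were above 0 (48.3% of all genes) with a median of 0.22, 8 were higher at an unadjusted p under 0.05 (8.16% of all genes) and 9 had both RB1 KO libraries on top (22.5% of all genes). ADM, the vasodilator adrenomedullin, had 6824 and 6906 counts against 6340 and 5487 (0.19, edgeR adjusted p = 0.272). The median of this list and that of the 8 tested glucose genes both lay above the median of all genes, which is a description of these lists and not a test of them.

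**Figure D4:**
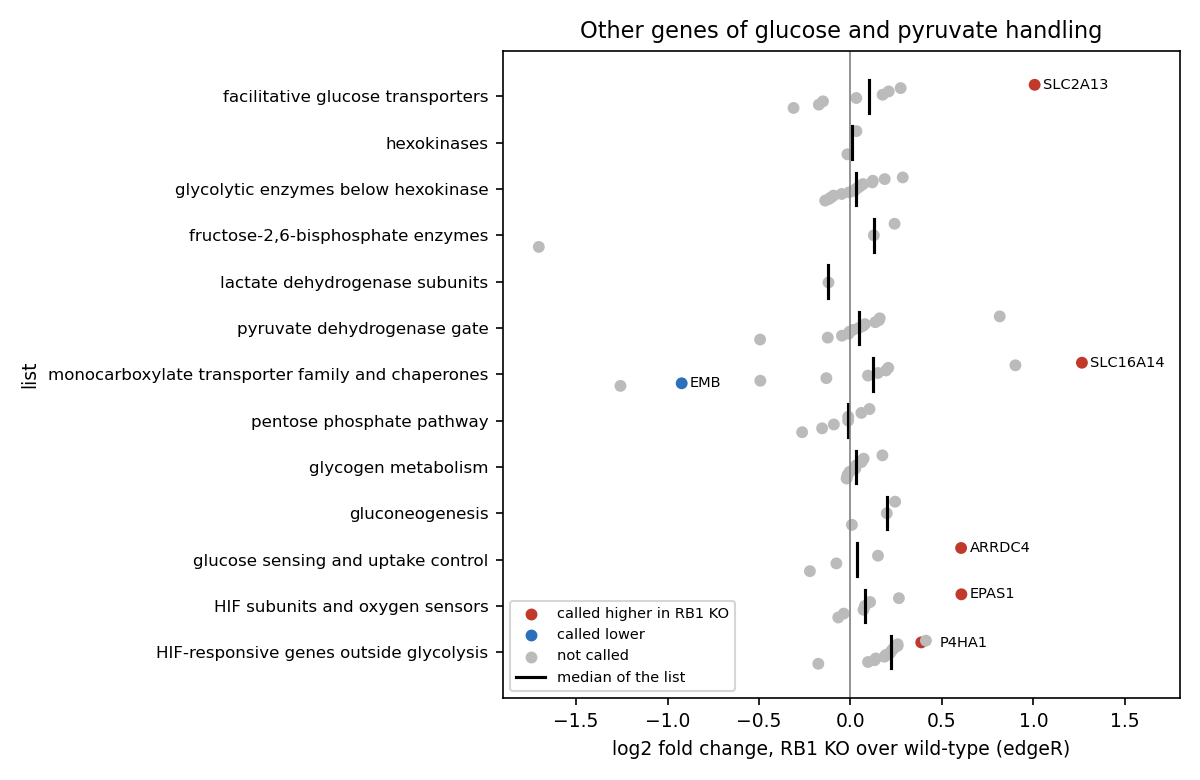
Log2 fold change of RB1 KO over wild-type (edgeR) for the 95 tested genes of the 13 lists, 1 row a list, with the list median as a bar and called genes in red (higher) or blue (lower). The enzymes below hexokinase lie between -0.14 and 0.29, and the 6 called genes fall in 5 lists.

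Reads of neighbouring genes bear on some of these counts, since the strand column kept by the authors is not stated. On the opposite strand, SLC16A3 overlaps CSNK1D (4176 to 4352 counts), SLC16A6 overlaps ARSG (123 to 159), SLC16A1 overlaps SLC16A1-AS1 (64 to 100) and PDK1 overlaps PDK1-AS1 (19 to 28). PFKFB4 shares its strand with UCN2 (31 to 39 counts). For SLC16A6 the overlapping gene had more counts than the carrier itself in 3 of 4 libraries, 136 and 159 in RB1 KO and 123 and 144 in wild-type. Reads that fall on both genes went to no gene, so with strands not separated the shared stretch would count low for both. How many reads were lost in this way is not known. Pseudogene copies held few reads, 14 to 33 for LDHAP4, 0 to 6 for SLC16A6P1 and 0 to 3 for HK2P1. Reads that fit a gene and its copy equally were not counted, so these values do not show how many such reads were lost.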

How the data were processed

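RNA from 4 libraries of confluent IMR-90 cells was sequenced by the authors after depletion of ribosomal RNA. The submitters' processing notes name STAR 2.7.2b and GRCh37 for the alignment, and reads with 1 mapping place were counted per GENCODE 19 gene. The deposited values are raw counts, as whole numbers. Reads that fall on overlapping genes (2.06% to 2.17%) went to no gene, so overlapped genes may be counted low. Symbols, coordinates and exon lengths came from GENCODE 44 mapped to GRCh37, which paired 55538 of 57820 IDs; the unpaired TXNIP and PECAM1 were not analysed here. The 99 spike-in lines and the summary lines stayed out of totals and tests.

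Groups followed the labelled genotype. Differential expression was tested two-sided with edgeR 4.0.16 in R 4.3.3 (TMM, quasi-likelihood) over 16426 genes. Benjamini-Hochberg adjustment was used, with calls at an adjusted p under 0.1, the cutoff of the study. Low counts were removed by filterByExpr at its defaults. These ask for about 10 counts, scaled to library size, in each of at least 2 libraries and for 15 per gene over all libraries. CPM use TMM factors, and a standard error is the log2 fold change divided by the root of F. DESeq2 1.42.0, other scalings and filters, a replicate block and leaving out each library were alternatives. With 1 library left out, a genotype has no replicate, so calls made or lost in that way are given as a description. The scripts were tested on simulated data. Replicates differed by more than counting noise (chi-square per degree of freedom 17.6 in RB1 KO and 18.8 in wild-type), with a biological coefficient of variation of 0.0867. Counting error weighs most on SLC16A6 and PFKFB4, which had the fewest counts.

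The members and all lists were chosen with earlier results of these data known. Named are the 10 genes, RB1, every partner in the ratios and, per list, up to 4 called genes with the smallest p or, where fewer than 2 were called, the 2 most highly expressed. Cell type markers, genes overlapping the 10 on the genome and near copies are named as checks. BSG and MYC are named beside the other genes of their lists, and ENO2, DDIT4 and BNIP3L for calls in an alternative. The authors' own differential expression values were not used.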

Additional observations from a re-analysis of the deposited data

How the results depend on the processing

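Of the 8 tested genes, 0 were called by edgeR with other scalings or filters, 3 by DESeq2 and 0 to 4 when 1 library was left out. Scaling by ERCC spike-ins moved the median of all genes to -0.49, and with it SLC2A3 (-0.10), PFKFB3 (-0.25), PFKFB4 (-0.42), LDHA (-0.44), PDK1 (-0.14), SLC16A1 (-0.47), SLC16A3 (-0.0940), P4HA1 (-0.0923) and RB1 (-0.36) changed sign. Relative to that median each of them stayed higher, and SLC2A1 and SLC16A6 were at 0.49 and 1.18. With that scaling 11 genes were called higher, 0 of them from the lists. The spike-in share differed between the wild-type libraries (0.187% and 0.135%) as well as between the genotypes. With library totals LDHA was at -0.0316 and SLC16A1 at -0.0631, 326 genes were lower and 2 of the lists. With upper-quartile factors SLC16A1 was at -0.0201. Without the filter 90 genes were lower. At an adjusted p under 0.05, 157 were higher and 65 lower, 0 of the latter in the lists, as with DESeq2.

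Leaving out 1 library gave 186 to 770 genes higher and 69 to 661 lower, 4 to 10 and 0 to 2 in the lists, with PFKFB4 between -0.0412 and 0.21, LDHA between -0.0262 and 0.10 and SLC16A1 between -0.0349 and 0.0537. Over genes, the deviations of same-numbered libraries from their group means correlated at -0.20, so these did not deviate together. With 2 libraries a genotype the deviations mirror each other, so libraries of different number deviated together to the same degree. Replicate numbers were not used as a pairing in the main test. With the replicate block 152 genes were higher and 74 lower, 4 and 0 in the lists, where P4HA1 (adjusted p = 0.173) and EMB (adjusted p = 0.176) lost their edgeR calls. The crossed replicate block, added after seeing the data, gave 1612 and 1362 genes, 5 of the 8, and 24 and 6 in the lists. The cause of these shifts was not tested. With 2 libraries a genotype, precision is set by the spread between libraries, and for SLC16A6 and PFKFB4 by depth too.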
